A study of Mus musculus with 6 samples.

Results

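The nuclear genes that encode subunits of the oxidative phosphorylation complexes were examined in mouse MA-10 Leydig tumour cells after knockdown of COUP-TFII, the orphan nuclear receptor encoded by Nr2f2. A gene was included when the deposited annotation gave a probe set exactly 1 gene and a symbol of the families Nduf, Sdh, Uqcr, Cox4 to Cox8 or Atp5, and the brightest such probe set over the 6 arrays stood for the gene. This rule found 86 of the 24032 genes measured, of which 37 belong to complex I, 4 to complex II, 8 to complex III, 18 to complex IV and 19 to complex V. The symbols also took in 6 genes that are not structural subunits, namely Atp5s, Atp5sl, Cox7a2l, Ndufa4l2 and the pseudogenes Atp5l-ps1 and Atp5l2-ps. Ndufa4, which is counted here with complex I by its symbol, is now assigned to complex IV.

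Oxidative phosphorylation is carried out in the inner mitochondrial membrane. Complex I and complex II pass electrons from NADH and succinate to coenzyme Q, complex III passes them to cytochrome c, complex IV reduces oxygen, and complex V (ATP synthase) uses the proton gradient built by complexes I, III and IV to make ATP. Most subunits are encoded in the nucleus, and in Leydig cells the same organelle holds the first enzyme of steroid synthesis, Cyp11a1, whose substrate is brought in by Star.

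The MA-10 line is a single mouse Leydig tumour cell line, and all 6 cultures were grown with 15% horse serum. Per the labels, 3 biological replicates were transfected with siRNA against COUP-TFII and 3 with a control siRNA, all for 48 h. No hormone treatment is named in the labels, and neither siRNA sequence is given there. RNA was hybridised to Affymetrix ST arrays from 200 ng of total RNA per array, and values are normalized log2 expression as deposited.

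Nr2f2, on chromosome 7, had 8.25, 8.42 and 8.56 log2 units in the COUP-TFII siRNA arrays and 8.98, 8.97 and 9.19 in the control siRNA arrays. No array of either group reached the other, and its signal after COUP-TFII siRNA was 64.4% of control (difference -0.63 log2, SE 0.09, n = 3 each, limma adjusted p = 0.00802), so the transcript was lowered and not absent. Of 6 Leydig cell markers measured, 4 were lower in COUP-TFII siRNA cells at an adjusted p under 0.05 (Star, Cyp11a1, Hsd3b1 and Lhcgr). Of the other 2, Cyp17a1 differed by 0.34 (adjusted p = 0.201) and Nr5a1 by -0.02 (adjusted p = 0.898). Of 19 markers of Sertoli, germ, macrophage and endothelial cells, 14 lay in the dimmer part of the array, below the median signal, and 1, the germ cell marker Ddx4, was called lower. The mean of the 4 endothelial markers was 7.60 to 7.68 in COUP-TFII siRNA arrays and 7.62 to 7.68 in control siRNA arrays. The single markers went both ways and none was called. Cdh5 differed by -0.15 (limma adjusted p = 0.190), Pecam1 by -0.05, Tek by 0.06 and Kdr by 0.11. The probe set of Cdh5 was itself bright, at the 93.9th percentile of mean signal. The part of these marker differences in the results given here was not tested. In cultures measured in bulk, fewer cells of a type and less RNA per cell cannot be told apart.

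The difference for each gene was fitted with limma over all 26836 probe sets with a gene symbol, and a gene was called at an adjusted p (Benjamini-Hochberg) under 0.05 with no minimum fold. Differences throughout are log2 values of COUP-TFII siRNA minus those of control siRNA. Of the 86 genes, 3 fell and 0 rose, where 3.03% of all genes were called lower and 1.6% higher, and 5.75% and 3.55% of the 5303 other genes in the members' interquartile range of mean signal (9.80 to 12.24 log2 units). The 3.49% of members called lower is near that background, and the count is therefore not a result about these genes. At an unadjusted p under 0.05, 20 of the 86 genes were lower and 2 higher. The 20 make 23.3% of the members, and the same limit was passed downward by 10.1% of all genes and by 18.6% of the other genes of similar signal, and upward by 9.59% and 13.8%.

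What most of the 86 genes had in common was a small difference of one sign. The point estimate was below 0 for 71 of the 86 (82.6%), against 43.7% of all genes and 52.2% of the other genes of similar signal. The median difference was -0.07, or 95.4% of control, against a median of 0.01 over all genes and -0.01 over the genes of similar signal. The differences ran between -0.30 (Atp5j) and 0.24 (Cox6a2), and only 10 point estimates lay below 90% of control. These list values are descriptions, since genes of one culture are not independent replicates and no test was made over the list.

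**Figure D1:**
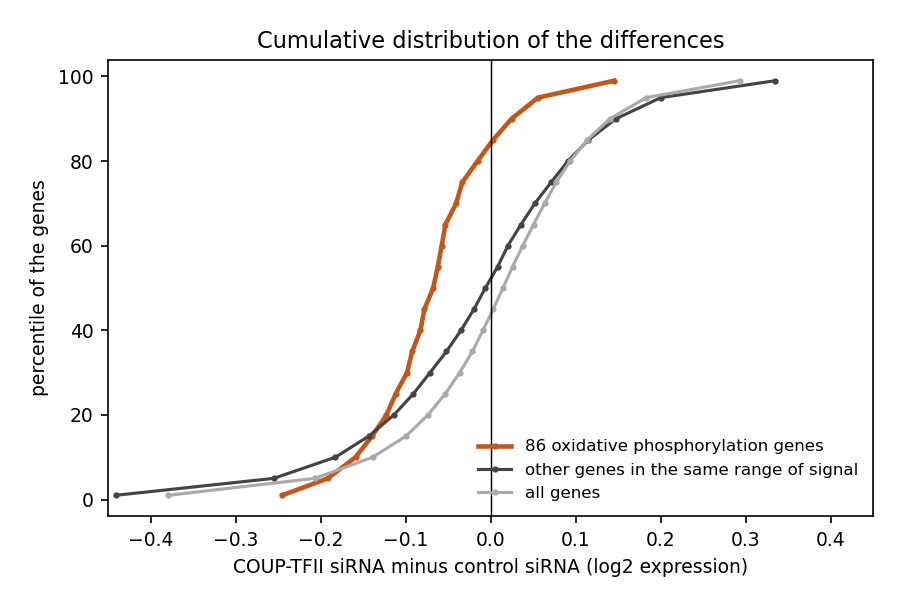
Percentiles of the difference COUP-TFII siRNA minus control siRNA (x axis, log2 expression) for the 86 oxidative phosphorylation genes, the 5303 other genes in their interquartile range of signal, and all 24032 genes. The curve of the 86 genes crosses its 50th percentile at -0.07 and reaches less far to either side than the curves of the other genes.

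The same values can be read array by array. The mean over the 86 genes was 10.81, 10.78 and 10.83 log2 units in the COUP-TFII siRNA arrays and 10.86, 10.89 and 10.87 in the control siRNA arrays, and the groups did not overlap. COUP-TFII siRNA replicate 2 was the lowest of the 6 arrays for 38 of the 86 genes, replicate 3 for 17 and replicate 1 for 8. Against the mean of the control siRNA arrays, 72, 74 and 64 of the 86 genes were lower in COUP-TFII siRNA replicates 1, 2 and 3. The array medians over all probe sets ran the other way, between 7.59 and 7.60 in COUP-TFII siRNA arrays and between 7.56 and 7.57 in control siRNA arrays. Per gene, all 3 COUP-TFII siRNA arrays lay below all 3 control siRNA arrays for 34 genes (39.5%) and above them for 3 (3.49%), where the shares of all genes were 12.5% and 13.2% and those of the genes of similar signal 23.6% and 21.1%.

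**Figure D2:**
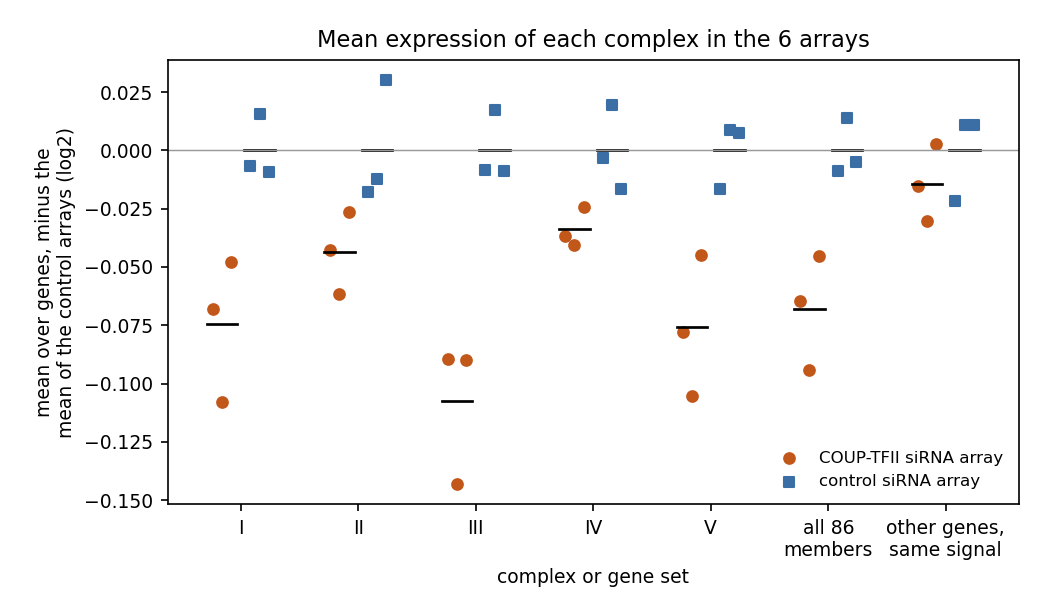
Mean over the genes of each complex in each array, minus the mean of the 3 control siRNA arrays (y axis, log2 expression), with circles for COUP-TFII siRNA arrays, squares for control siRNA arrays and bars for group means. The arrays of the 2 groups do not overlap in any of the 5 complexes and do overlap for the 5303 other genes of similar signal.

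By complex, the median difference was -0.08 in complex I (31 of 37 genes below 0), -0.05 in complex II (3 of 4), -0.12 in complex III (7 of 8), -0.06 in complex IV (14 of 18) and -0.06 in complex V (16 of 19). The median of complex II was -0.033 without control siRNA replicate 3. The calls were 1 gene of complex III and 2 of complex V. The order of the complex medians was not tested, and the ranges of their genes overlapped.

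**Figure D3:**
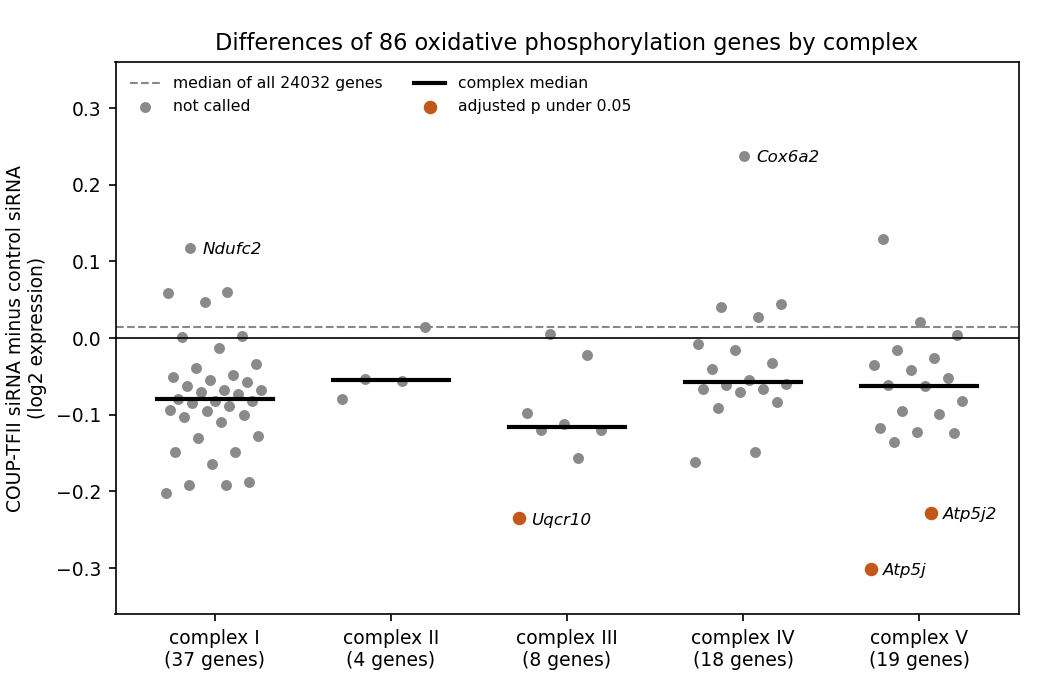
Difference COUP-TFII siRNA minus control siRNA (y axis, log2 expression) of each of the 86 genes by complex, with complex medians as bars. The 3 genes called at an adjusted p under 0.05, Atp5j, Atp5j2 and Uqcr10, lie lowest, and Cox6a2 at 0.24 is the highest of all.

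Complex V, the ATP synthase, held the gene with the lowest difference. Its soluble F1 head makes ATP, and the membrane part Fo with its stalks carries the proton flow and holds the head in place. Atp5j on chromosome 16 encodes coupling factor 6 of the peripheral stalk. It had 12.12, 12.14 and 12.16 log2 units in COUP-TFII siRNA arrays and 12.47, 12.45 and 12.41 in control siRNA arrays. The gap between the groups was several times the spread within either. Atp5j fell to 81.2% of control (difference -0.30, SE 0.04, 95% interval -0.40 to -0.20, adjusted p = 0.0099), and it stayed under an adjusted p of 0.05 in 14 of 15 other settings of the fit, the exception (adjusted p = 0.0535) leaving out COUP-TFII siRNA replicate 2. No uncalled member had an estimate as low.

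Atp5j2 on chromosome 5 encodes the f subunit of Fo. It had 11.98, 11.89 and 11.95 log2 units in COUP-TFII siRNA arrays, against 12.22, 12.16 and 12.13 in control siRNA arrays, again with no overlap. Atp5j2 fell to 85.4% of control (difference -0.23, SE 0.05, adjusted p = 0.0393). It passed in 7 of the 15 other settings. The call was lost with all probe sets tested (adjusted p = 0.0901) and when any 1 of the 6 arrays was left out, with the largest adjusted p (0.148) when it was COUP-TFII siRNA replicate 2, and the difference then lay between -0.25 and -0.20.

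The promoter windows of the called genes are given because these 3 genes were the only members to pass the test. They are the RefSeq windows of GRCm38.p6, from 250 bases before to 50 after the start, 5′ to 3′ on the gene's strand. Capitals mark exact matches, on either strand, to the letters CCGGAAG of the GABPA (ETS) site or AANATGGC of the YY1 site. GABPA and YY1 are transcription factors known to act on many respiratory genes. The window of Atp5j lies at chr16:84834927-84835226 on the minus strand, that of Atp5j2 at chr5:145191492-145191791 on the minus strand and that of Uqcr10 at chr11:4704295-4704594 on the minus strand.
Atp5j: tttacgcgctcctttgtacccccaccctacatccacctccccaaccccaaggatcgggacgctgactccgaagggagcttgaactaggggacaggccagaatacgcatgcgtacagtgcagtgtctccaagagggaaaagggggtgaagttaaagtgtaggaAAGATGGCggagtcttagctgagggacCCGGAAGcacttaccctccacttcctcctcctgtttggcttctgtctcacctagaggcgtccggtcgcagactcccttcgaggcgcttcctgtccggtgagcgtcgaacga
Atp5j2: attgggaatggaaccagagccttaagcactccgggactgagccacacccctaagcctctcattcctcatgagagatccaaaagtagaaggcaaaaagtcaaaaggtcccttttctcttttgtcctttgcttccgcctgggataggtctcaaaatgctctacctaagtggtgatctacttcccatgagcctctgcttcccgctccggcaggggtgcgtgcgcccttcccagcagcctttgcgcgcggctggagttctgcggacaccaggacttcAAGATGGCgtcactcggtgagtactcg
Uqcr10: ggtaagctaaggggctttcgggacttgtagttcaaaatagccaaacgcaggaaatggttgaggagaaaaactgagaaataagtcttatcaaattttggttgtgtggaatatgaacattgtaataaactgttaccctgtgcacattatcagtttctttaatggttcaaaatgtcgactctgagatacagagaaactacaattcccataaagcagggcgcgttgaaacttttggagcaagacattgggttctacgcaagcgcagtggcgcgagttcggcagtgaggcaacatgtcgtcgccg
In the Atp5j window the YY1 match begins 88 bases and the ETS match 61 bases before the start, and in the Atp5j2 window the YY1 match begins 23 bases after it. The Uqcr10 window held no match to any of the motifs searched, and neither did a second annotated Atp5j window further upstream.

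The other Fo and stalk subunits of complex V were not called. The 10 genes of this group, the called ones included, had a median difference of -0.09, 8 were below 0, and in 8 the COUP-TFII siRNA arrays were all lower, as in 12.5% of all genes and 23.6% of those of similar signal. The c subunits, which form the rotating ring of Fo and are encoded by a family whose members differ mainly in their import sequence, gave like estimates of one sign. Atp5g2 had 13.23, 13.17 and 13.20 log2 units in COUP-TFII siRNA arrays and 13.36, 13.30 and 13.33 in control siRNA arrays (difference -0.14, SE 0.05, adjusted p = 0.143). Its other probe sets gave -0.13 and -0.14. Atp5g3 differed by -0.08 (adjusted p = 0.367) and Atp5g1 by -0.05 (adjusted p = 0.565), both with no overlap between the groups.

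The 5 subunits of the F1 head had a median difference of -0.03, each estimate was below 0, and none was called. Atp5b, which carries the catalytic site, had 13.28, 13.30 and 13.29 log2 units in COUP-TFII siRNA arrays and 13.28, 13.35 and 13.28 in control siRNA arrays. These arrays overlapped, and the 95% interval of the difference of -0.02 ran between -0.12 and 0.09. Its partner Atp5a1 differed by -0.03 (interval -0.14 to 0.07). Whether Fo and F1 genes differed from each other was not tested. Among the symbols of this family that are not subunits, Atp5sl had the largest positive difference, 0.13 (SE 0.07, adjusted p = 0.387). Atp5l2-ps gave -0.12 (adjusted p = 0.232), and it, Atp5l-ps1 and Atp5l are near-identical copies whose probes may read the same transcript.

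Complex III, the cytochrome bc1 complex, had the lowest of the 5 medians. Uqcr10 on chromosome 11 encodes a small subunit next to the cytochrome c1 and Rieske proteins. It had 10.05, 9.90 and 9.99 log2 units in COUP-TFII siRNA arrays and 10.19, 10.26 and 10.19 in control siRNA arrays, without overlap. Uqcr10 fell to 85.0% of control (difference -0.24, SE 0.05, adjusted p = 0.0464). It too passed in 7 of the 15 other settings. Testing all probe sets ended the call (adjusted p = 0.107), as did leaving out any 1 array, with the largest adjusted p (0.160) again for COUP-TFII siRNA replicate 2.

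The next members of complex III did not pass the test. Uqcrc2, a core protein that faces the matrix, had 12.23, 12.23 and 12.30 log2 units in COUP-TFII siRNA arrays and 12.36, 12.43 and 12.44 in control siRNA arrays (difference -0.16, SE 0.05, adjusted p = 0.113). Uqcrfs1, the Rieske iron-sulfur protein, differed by -0.12 (SE 0.05, adjusted p = 0.186) and Uqcrq, a small subunit that lies against cytochrome b, by -0.12 (SE 0.05, adjusted p = 0.191). In each of these 3 genes the groups did not overlap, with all COUP-TFII siRNA arrays lower, as in 12.5% of all genes and 23.6% of those of similar signal. The 3 were named for their small p-values, and that choice favours such a separation. Uqcrb was the 1 gene of the complex with an estimate above 0, at 0.00 (interval -0.13 to 0.14).

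**Figure D4:**
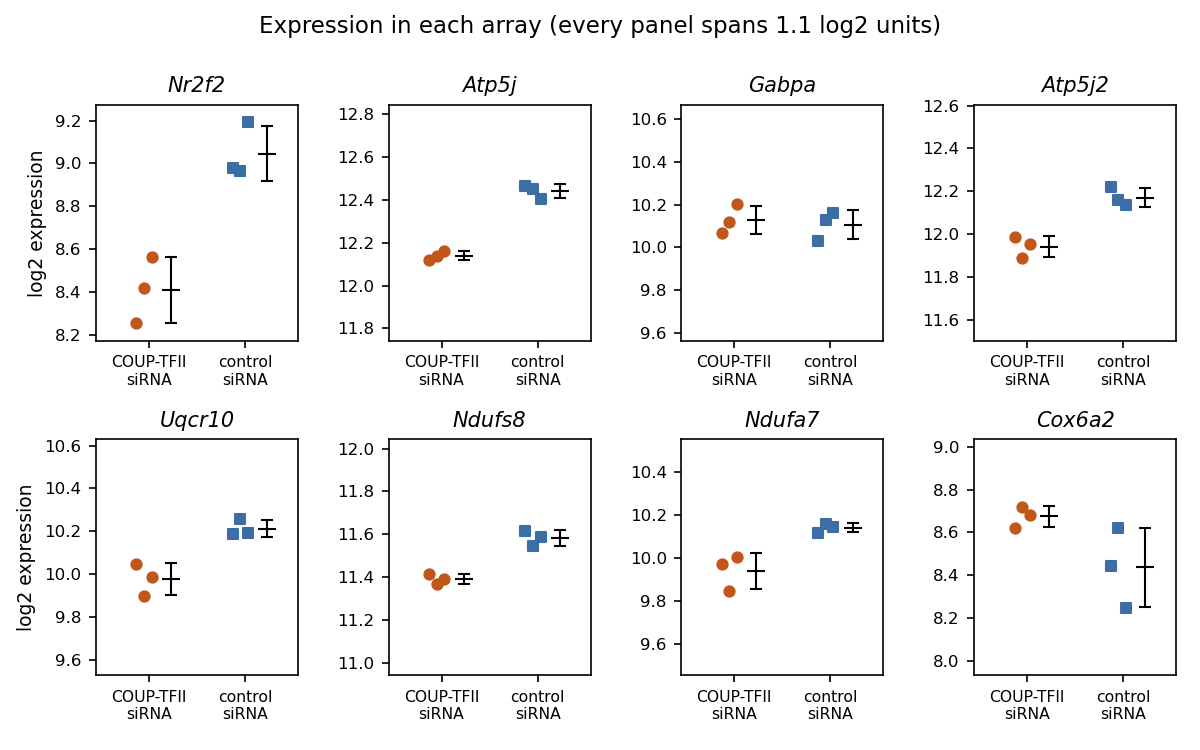
Log2 expression (y axis, every panel spanning the same range) of Nr2f2, the 3 called genes, Gabpa, Ndufs8, Ndufa7 and Cox6a2 in each array, with circles for COUP-TFII siRNA, squares for control siRNA, and mean ± SD beside each group (n = 3). Atp5j separates by 0.30 log2 units, whereas its neighbour Gabpa overlaps between the groups.

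Complex I, the NADH dehydrogenase, is the largest complex, and none of its 37 genes was called. The core subunits are those shared with the bacterial enzyme, and the rest are accessory. The 7 nuclear core subunits had a median difference of -0.07 (6 below 0) and the 30 other genes one of -0.08 (25 below 0). Ndufs8, a core subunit that holds iron-sulfur clusters near the coenzyme Q site, had 11.41, 11.37 and 11.39 log2 units in COUP-TFII siRNA arrays and 11.62, 11.55 and 11.59 in control siRNA arrays. Every COUP-TFII siRNA array was lower, and the difference was -0.19 (SE 0.05, adjusted p = 0.0536), just outside the threshold. Ndufa7, an accessory subunit, had 9.97, 9.85 and 10.003 log2 units in COUP-TFII siRNA arrays and 10.12, 10.16 and 10.15 in control siRNA arrays (difference -0.20, SE 0.05, adjusted p = 0.0771). Each of these passed the threshold in 4 of the 15 other settings.

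The other core subunits spread more widely. Ndufs3, of the module that meets coenzyme Q, had 11.55, 11.52 and 11.51 log2 units in COUP-TFII siRNA arrays and 11.69, 11.69 and 11.64 in control siRNA arrays (difference -0.15, adjusted p = 0.109). Ndufs7, an iron-sulfur subunit, differed by -0.07 (interval -0.18 to 0.04). Of the subunits that take electrons in from NADH, the flavin-binding Ndufv1 differed by -0.07 (interval -0.24 to 0.09) and Ndufv2 by -0.01 (interval -0.13 to 0.11). Ndufs1, the large subunit that passes these electrons on through iron-sulfur clusters, was the core gene with the opposite sign, with 11.37, 11.36 and 11.41 log2 units in COUP-TFII siRNA arrays and 11.31, 11.32 and 11.33 in control siRNA arrays. Its groups did not overlap, but the difference of 0.06 (SE 0.04, adjusted p = 0.509) did not pass the test.

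Among the accessory subunits, Ndufs4, whose loss causes Leigh-like disease in mice, differed by -0.13 (SE 0.05, adjusted p = 0.163). Ndufc2, a membrane-arm subunit, had the largest difference above 0 in the complex, with 13.25, 13.29 and 13.26 log2 units in COUP-TFII siRNA arrays and 13.15, 13.13 and 13.16 in control siRNA arrays (difference 0.12, SE 0.04, adjusted p = 0.184). All its COUP-TFII siRNA arrays were higher than all its control siRNA arrays. The genes named for the alpha subcomplex (14 genes, 12 below 0) and for the beta subcomplex (10 genes, 9 below 0) both had a median of -0.09. Ndufa4 differed by -0.09 (adjusted p = 0.393), and its paralog Ndufa4l2, a gene known to be induced by hypoxia, by -0.08 (adjusted p = 0.465).

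Complex II, succinate dehydrogenase, links the chain to the citric acid cycle and is the 1 complex encoded wholly in the nucleus. Sdhb, the iron-sulfur subunit, had 11.20, 11.13 and 11.18 log2 units in COUP-TFII siRNA arrays and 11.25, 11.26 and 11.23 in control siRNA arrays (difference -0.08, SE 0.05, adjusted p = 0.391). The membrane anchors Sdhd and Sdhc differed by -0.06 (adjusted p = 0.566) and -0.05 (adjusted p = 0.581), also with no overlap between the groups. Such a separation downward was found in 12.5% of all genes and 23.6% of those of similar signal. Sdha, the flavoprotein, had 12.32, 12.32 and 12.36 log2 units in COUP-TFII siRNA arrays and 12.31, 12.28 and 12.37 in control siRNA arrays, which overlapped (difference 0.01, interval -0.09 to 0.12).

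Complex IV, cytochrome c oxidase, has a core encoded in the mitochondrion and nuclear subunits around it, several of which exist as tissue isoforms. None of its 18 genes was called. The 11 genes that are not tissue isoforms had a median of -0.06 (10 below 0) and the 7 tissue isoforms one of -0.04 (4 below 0). Cox7a2, the widely expressed form of subunit VIIa, had 11.14, 11.08 and 11.03 log2 units in COUP-TFII siRNA arrays and 11.19, 11.35 and 11.15 in control siRNA arrays (difference -0.15, SE 0.06, adjusted p = 0.238). Its heart and muscle isoform Cox7a1 differed by -0.16 (SE 0.08, adjusted p = 0.325), with overlapping groups. Cox8a, the common form of subunit VIII, differed by -0.08 (SE 0.04, adjusted p = 0.354), with no overlap.

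The largest positive difference of the 86 genes was that of Cox6a2, the heart and muscle isoform of subunit VIa. It had 8.62, 8.72 and 8.68 log2 units in COUP-TFII siRNA arrays and 8.44, 8.62 and 8.25 in control siRNA arrays. The groups lay side by side without overlap, but the control siRNA arrays spread widely (SD 0.19, against 0.05 for COUP-TFII siRNA), and the difference of 0.24 (SE 0.09, adjusted p = 0.175) did not pass the test in any of the 15 other settings. It was 0.14 without control siRNA replicate 3 and 0.33 without control siRNA replicate 2. The common isoform Cox6a1 differed by -0.01 (interval -0.12 to 0.11).

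The remaining isoform pairs gave small estimates. Cox4i1, the common form of subunit IV, differed by -0.05 and the hypoxia-linked form Cox4i2 by -0.07. Cox6b1 differed by -0.09 and its testis form Cox6b2 by 0.04, while Cox7b differed by -0.07 and its testis form Cox7b2 by -0.04. The muscle form Cox8b differed by -0.06 and the testis form Cox8c by 0.04. All adjusted p-values of these genes lay above 0.4. Cox6b2, Cox7b2, Cox8b, Cox8c and Ndufa4l2 were the 5 members below the median of mean signal, where an array may not measure a change.

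Precision limits what the single genes can show. The SE of the 86 differences ran between 0.043 and 0.087 log2, with a median of 0.050, which is close to the size of the median difference. The 95% interval lay wholly below 0 for 20 genes and wholly above 0 for 2, and no interval reached below 75.6% of control. These are the genes with an unadjusted p under 0.05 and not a further result. That limit was passed downward by 10.1% of all genes and 18.6% of those of similar signal, and upward by 9.59% and 13.8%. An exact permutation test of 1 gene or mean over these 6 arrays cannot give a p under 0.1.

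The genes that build and serve the complexes were set beside the subunits. The 111 further genes measured came from 9 lists. These held assembly factors, coenzyme Q and electron entry, regulators, supercomplex and cristae proteins, missed subunits with linked proteins, and mitochondrially encoded subunits. Of the 111 genes, 5 fell (4.5%) and 0 rose, near the 3.03% and 1.6% of all genes. The shares were 5.75% and 3.55% of the 5303 other genes in the members' range of signal. At an unadjusted p under 0.05, 25 were lower (22.5%) and 4 higher. The same limit was passed by 10.1% and 9.59% of all genes and by 18.6% and 13.8% of the genes in that range. The difference was below 0 for 73 (65.8%), against 43.7% of all genes and 52.2% of the genes in that range. No background was matched to the signal of the 111 genes themselves.

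The 5 calls are split by list only to place them, as 3.03% of all genes and 5.75% of those in the members' range of signal were called lower. No count by list is a result about that list. Of 19 complex IV assembly factors 2 fell. Cox18, which inserts a mitochondrially encoded subunit of complex IV into the inner membrane, had 11.01, 11.04 and 11.09 log2 units in COUP-TFII siRNA arrays and 11.38, 11.35 and 11.42 in control siRNA arrays (difference -0.34, SE 0.05, adjusted p = 0.00802). It was under the threshold in all 15 other settings. Coa3, which steadies the newly made catalytic subunit of complex IV, had 10.56, 10.49 and 10.52 log2 units in COUP-TFII siRNA arrays and 10.79, 10.82 and 10.79 in control siRNA arrays (difference -0.28, SE 0.05, adjusted p = 0.0146), and it passed in 12 of the 15. It was lost without COUP-TFII siRNA replicate 2 (adjusted p = 0.0739), without COUP-TFII siRNA replicate 3 (adjusted p = 0.0547) and without control siRNA replicate 3 (adjusted p = 0.0536).

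Of 18 genes of coenzyme Q synthesis and electron entry 2 fell. Coq3, a methyltransferase of coenzyme Q synthesis, had 9.83, 9.79 and 9.79 log2 units in COUP-TFII siRNA arrays and 10.08, 10.23 and 10.20 in control siRNA arrays (difference -0.37, SE 0.05, adjusted p = 0.00961), which was lost only without COUP-TFII siRNA replicate 2 (adjusted p = 0.0533). Coq6, a monooxygenase of the same route, had 9.07, 9.0 and 9.05 log2 units in COUP-TFII siRNA arrays and 9.29, 9.33 and 9.24 in control siRNA arrays (difference -0.25, SE 0.05, adjusted p = 0.0279), and it passed in 7 of the 15 other settings. The call was lost with all probe sets tested (adjusted p = 0.0721) and when any 1 array was left out (up to 0.115, without COUP-TFII siRNA replicate 2). All 3 COUP-TFII siRNA arrays were lower than all control siRNA arrays for both genes, as in 12.5% of all genes. Both were named because they were called, and that choice favours such a separation.

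Of 14 complex I assembly factors 1 fell. Ndufaf7, a methyltransferase of mitochondria, had 8.70, 8.69 and 8.69 log2 units in COUP-TFII siRNA arrays and 8.89, 9.0 and 8.95 in control siRNA arrays (difference -0.25, SE 0.05, adjusted p = 0.023). It passed in 8 of the 15 other settings. The call was lost with all probe sets tested (adjusted p = 0.0626) and when any 1 array other than control siRNA replicate 1 was left out (up to 0.0953, for COUP-TFII siRNA replicate 2).

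The other lists held no call. For the 10 assembly factors of complexes II and III the gene with the smallest p was Sdhaf3, with a difference of 0.24 (SE 0.06, adjusted p = 0.0728). For the 3 of complex V it was Tmem70 (-0.12, adjusted p = 0.257). For the 14 supercomplex and cristae proteins it was Higd1a, a hypoxia-induced protein that binds complex IV (-0.29, SE 0.07, adjusted p = 0.0559). A list of 7 genes held subunits that the symbol families miss, with cytochrome c (Cycs and Cyct) and the ATP synthase inhibitor Atpif1. Its smallest p was that of 2010107E04Rik (-0.10, adjusted p = 0.277).

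The regulators of respiratory gene expression had a median difference of -0.00 over 18 genes, with 9 below 0 and 1 lower at an unadjusted p under 0.05. That 1 was Peo1, the helicase of mitochondrial DNA (-0.18, SE 0.06, adjusted p = 0.125). The nuclear respiratory factor Nrf1 differed by -0.01, the coactivator Ppargc1b by 0.05 and Esrra, the estrogen-related receptor that acts with it, by 0.09, none of them called. Ppargc1a lay at the 12.5th percentile of mean signal, so its difference of -0.02 has little measurement behind it. These 4 genes are named for their known roles and were chosen after their values were seen.

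The mitochondrially encoded subunits had a median difference of 0.01 over the 9 genes measured, with 3 below 0 and none called or past an unadjusted p of 0.05. All but ND6 lay between the 99.4th (ND3) and 99.99th (ND2) percentile of mean signal. So near the top of the array a change may be compressed, and the median does not show that these transcripts were unchanged. The gene with the smallest p was ND6, with 7.30, 7.43 and 7.29 log2 units in COUP-TFII siRNA arrays and 7.32, 8.20 and 7.32 in control siRNA arrays. Control siRNA replicate 2 alone lay apart, and the groups overlapped (difference -0.27, SE 0.21, adjusted p = 0.528). The probes of these genes could also read nuclear copies of mitochondrial DNA, which the arrays cannot tell apart, so the contrast with the nuclear genes was not tested.

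The windows of the subunit genes shared sequence features. RefSeq promoter windows were found for 69 of the 86 genes, 75 windows in all, and each motif was searched on both strands. The NRF1 site, GCGCA and GCGC with any 1 base between, was present in 24% of member windows and 4.6% of all 32851 windows. The GABPA (ETS) site, CCGGAAG, was present in 21.3% and 8.86%, and the YY1 site, AANATGGC, in 25.3% and 6.05%. No member window held TATAAA in the 50 bases before the start, which 2.63% of all windows did. The median GC content was 57.3% in member windows and 52.7% in all. The windows compared were not matched for GC content or signal, so these features are not shown to be particular to the subunit genes.

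The letters bound by COUP-TFII and related receptors were searched too. The single receptor site AGGTCA was present in 21.3% of member windows and 16.3% of all windows, and its direct repeat with a spacer of 1 base, called DR1, in 0 of 75 member windows and 0.0396% of all. The ERR site, TCAAGGTCA, which also holds AGGTCA, was in 2 of 75 member windows (2.67%), against 0.423% of all windows. The 16 genes with an AGGTCA in the window had a median difference of -0.075 (15 below 0) and the 53 without one of -0.068 (43 below 0), and the difference between them was not tested. The medians with and without a site were -0.06 and -0.08 for NRF1, -0.08 and -0.07 for GABPA, and -0.09 and -0.07 for YY1. A match is only a match of letters, and these windows leave out distal elements.

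Many of these genes share their start region with another gene. A gene on the opposite strand began within 1000 bases of 22 of the 69 members with a window (31.9%), against 15.8% of 27025 genes. Those genes too were not matched to the members for GC content or signal. Of these neighbours 15 were measured, with a median difference of 0.00, 7 below 0 and none called by limma, although 2 passed an unadjusted p of 0.05. The 15 members of these pairs had a median of -0.05, with 11 below 0.

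**Figure D5:**
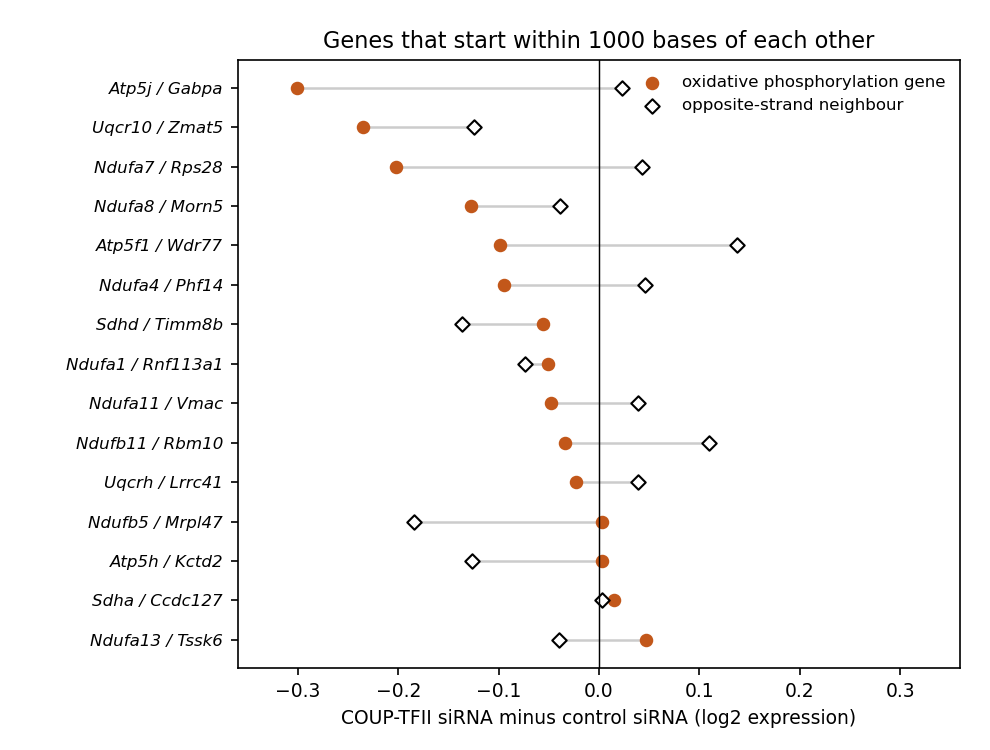
Difference COUP-TFII siRNA minus control siRNA (x axis, log2 expression) of 15 oxidative phosphorylation genes (circles) and of the genes that start within 1000 bases on the opposite strand (diamonds). Atp5j lies at -0.30 and its neighbour Gabpa at 0.02, on opposite sides of 0.

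The pair with the called gene of complex V was the widest apart. Atp5j and Gabpa, which encodes the ETS factor named above, start 148 bases from each other, and the ETS and YY1 matches printed for Atp5j lie in both promoter windows. Gabpa had 10.07, 10.12 and 10.20 log2 units in COUP-TFII siRNA arrays and 10.03, 10.13 and 10.16 in control siRNA arrays, which overlapped (difference 0.02, interval -0.11 to 0.15, adjusted p = 0.878). Within each array, Atp5j minus Gabpa was 2.05, 2.02 and 1.96 log2 units after COUP-TFII siRNA and 2.44, 2.33 and 2.25 after control siRNA. All values after COUP-TFII siRNA were lower, and the exact two-sided permutation p of 0.1 is the smallest that this number of arrays can give. The pair was chosen after its values were seen.

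The other called gene with a measured neighbour was Uqcr10, which starts 312 bases from Zmat5. Zmat5 had 9.49, 9.33 and 9.46 log2 units in COUP-TFII siRNA arrays and 9.49, 9.63 and 9.53 in control siRNA arrays (difference -0.12, interval -0.26 to 0.01, adjusted p = 0.316). Within each array Uqcr10 minus Zmat5 was 0.56, 0.57 and 0.53 log2 units after COUP-TFII siRNA and 0.69, 0.63 and 0.67 after control siRNA, with the same exact p of 0.1. The Uqcr10 and Atp5j pairs were taken because these members were called lower. That choice favoured lower values after COUP-TFII siRNA, so neither exact p is support for a difference. For Ndufa7 the neighbour Rps28, a ribosomal protein gene 10 bases away, differed by 0.04.

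The authors' deposited table gives the same genes in another fit and with other ratios. By the authors' deposited table, 77 of the 86 genes had a ratio of COUP-TFII siRNA over control below 1, with a median of 0.951, against 1.01 over all genes. An unadjusted p under 0.05 in the authors' deposited table was given to 37 of the 86, of which 34 had a ratio below 1. The shares of all genes for these counts were not computed from that table, so neither count is a result about these genes. The ratio in the authors' deposited table was 0.805 for Atp5j (p = 1.15e-07), 0.852 for Atp5j2 and 0.849 for Uqcr10. Those p-values could be fitted as a model of 4 groups and 12 arrays, whereas 6 arrays were analysed here. They therefore rest on another estimate of the spread. The deposited ratios also differed from the differences given here. For Ndufb3 the log2 values were -0.23 deposited and -0.15 here, and for Atp5k they were -0.03 and 0.02. The cause was not tested. None of the 86 genes is in the authors' deposited list, which holds 334 of the 35556 probe sets. With so small a share, the absence is not a result about these genes. The p-values of that list could be fitted as a model of 2 groups and 6 arrays.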

How the data were processed

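RNA of 3 COUP-TFII siRNA and 3 control siRNA cultures was measured on arrays. The authors deposited normalized log2 values for 35556 probe sets (3.15 to 14.3). Per the submitters' processing notes the software was Partek 7.0. How background was corrected and arrays were normalized is not given in the sources used here. The authors' deposited tables also hold a linear ratio and an unadjusted p-value per probe set.

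From the log2 values, limma 3.58.1 in R 4.3.3 (lmFit, eBayes) compared the groups over the 26836 probe sets with a symbol, with no covariate, Benjamini-Hochberg adjustment and a threshold of 0.05. Of these, 25454 had exactly 1 gene. No filter on dim probe sets was used, and levels of different probe sets are not compared. Nothing in the labels says that the cultures were started separately beyond calling them biological replicates.

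The genes and the companion lists were chosen with earlier results of these data known. Genes named are the called ones, in each complex the 4 smallest p-values and the largest opposite difference, the isoform families, the complex I core, and per companion list the called genes or the smallest p. The values of 1 gene under this rule are not reported here. Replicate numbers are shared between groups, but the labels do not say that arrays of the same number belong together, so the main fit used no block. Deviations of arrays with the same number correlated at 0.11, -0.05 and 0.17. Those of arrays with unlike numbers correlated between -0.22 and 0.13. These values do not settle whether the arrays were paired. Alternatives changed the normalization, prior, array weights, filter, probe sets and arrays. Promoter windows and start sites are from RefSeq, GRCm38.p6. Only 6 arrays limit the precision.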

Additional observations from a re-analysis of the deposited data

How the results depend on the processing

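Alternatives changed normalization, prior, weights, filter, probe sets, members and arrays. The 86 genes had a median below 0 in every one (-0.10 to -0.06) and 67 to 78 genes below 0. The 3 genes called lower became 5 with each array centred on its median, 9 under a prior with an intensity trend (and 1 called higher), 8 among brighter probe sets, 1 with all probe sets and 0 to 1 leaving out 1 array (0 without COUP-TFII siRNA replicate 2). With the replicate number as a block 1 was called, Atp5j, and the adjusted p was 0.0664 for Atp5j2, 0.102 for Uqcr10, 0.0576 for Ndufaf7 and 0.0689 for Coq6. Centring moved the median of all 86 genes to -0.10 and those of complexes I to V to -0.11, -0.085, -0.15, -0.088 and -0.092, and array weights moved complex IV to -0.035 and complex V to -0.089. Of the companion genes 5 were called lower and 0 higher, and these became 12 lower with centring, 8 with quantile, cyclic loess or array weights, 13 with the trend, 14 among brighter probe sets, 3 with the block or with all probe sets and 1 to 5 leaving out 1 array, with 1 higher with quantile or array weights and 2 with the trend or brighter probe sets. Shares of all genes called under each alternative are not given here, so none of these counts is a result about these genes. The cause of the moves was not tested. Nr2f2 stayed past the threshold throughout (adjusted p 0.00117 to 0.0463). Of 54 other named genes, 7 lost their call and 10 gained one in some alternative.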
